A study of Mus musculus with 2 samples.

Results

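Non-neuronal olfactory epithelium genes are a set of 9 genes that mark the basal, sustentacular, gland, ionocyte and microvillar cells around the olfactory sensory neurons: Trp63, Pax6, Hes1, Ermn, Ascl3, Foxi1, Cftr, Trpm5 and Muc5ac. They were taken by name from GENCODE M21, and all 9 were found, out of 21544 protein-coding genes that start between the first and the last boundary of their chromosome. The data are in situ Hi-C, which records pairs of DNA sites lying close together in the nucleus, from neurons sorted by flow cytometry as expressing Olfr16 (MOR23), out of MOR23-GFP mice. Biological replicate 1 held 28000 sorted cells and biological replicate 2 held 24400, both from adult mice of mixed sex, with no treatment and with the strain not specified. The 2 replicates are 1 group, there is no control group, and the labels do not say how many animals were pooled. The measurements are 7435 boundaries on chromosomes 1 to 19 and X of GRCm38, sites between neighbouring chromosome stretches that each make many contacts within themselves, which the authors called once for the replicates together. RNA was not measured, so the silence of these genes in the sorted neurons comes from their known cell types and was not checked here, and neither was the purity of the sort.

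In the olfactory epithelium, basal stem cells rest on the lamina and renew all other lineages, sustentacular cells support and insulate the neurons, Bowman's glands secrete mucus, and the microvillar cells include ionocyte-like cells that move ions and tuft-like cells that sense chemicals. A chromatin boundary limits contacts between the DNA on its sides, and a gene usually meets enhancers that lie in its own interval more often than those beyond a boundary. Many boundaries in mammals are held by CTCF, a protein that binds DNA in a directed motif and stops the cohesin ring as it extrudes loops.

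Each boundary is 5 kb wide and carries the authors' strength score and class. The lowest Strong score was 0.5004 and the highest Weak score 0.4999, so the class is a division of the score. No replicate values, contact counts or depth come with the list. The values below therefore have no spread between samples, and distances are known only to the 5 kb bin. A gene start is the 5′ end of the gene record, and the interval of a gene is the stretch between the boundaries on its 5′ and 3′ sides.

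The 9 starts had a median distance from the nearest boundary of any class like that of all genes, and 7 of 9 lay farther from a Strong one than the median gene. The nearest boundary was 0.617 to 281 kb away, with a median of 57.9 kb, and the median over all protein-coding starts was 57.8 kb (quartiles 25.4 and 106 kb). When boundaries scored under 0.3 were left out, these medians were 111 and 71.0 kb, as Hes1 and Muc5ac lost their nearest boundary. Only Hes1 started within 10 kb of a boundary, 1 of 9 (11.1%, exact 95% Clopper-Pearson interval 0.281 to 48.2%), where 12.5% of all protein-coding starts did. Within 25 kb the count was again 1 of 9 against 24.8% of all, and within 50 kb it was 3 of 9 against 44.3%. To the nearest Strong boundary the median distance was 261 kb for the 9 genes and 102 kb for all protein-coding starts. Trpm5 and Ermn, at 55.4 and 57.9 kb, were the exceptions. For 3 of the 9, Pax6, Trpm5 and Ermn, the nearest boundary was Strong, which held for 62.9% of all protein-coding starts. The intervals cover counting error only, and as the genes were chosen by hand no test was made.

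**Figure D1:**
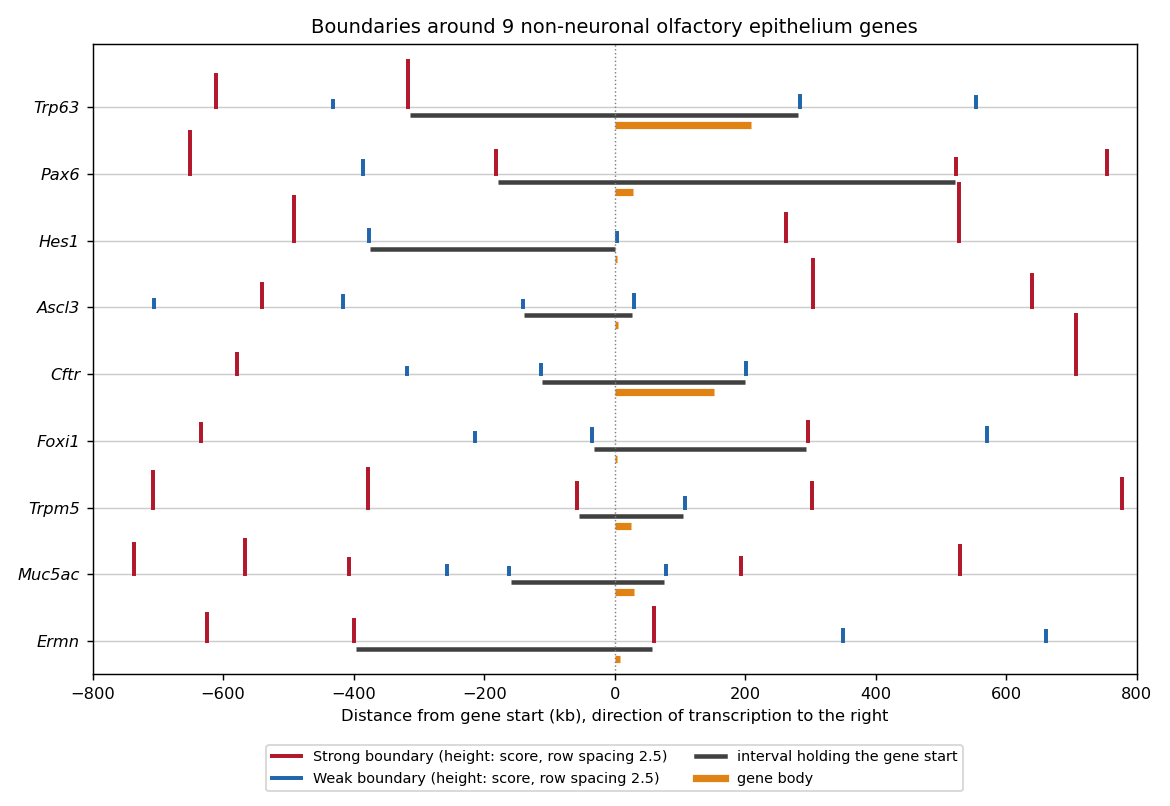
Boundaries around each of the 9 genes, by distance from the gene start in kb with transcription running to the right. Vertical bars are boundaries (red Strong, blue Weak) with height in proportion to the score, dark lines the interval that holds the start, and orange lines the gene body. Of the 9 gene bodies only that of Hes1 meets a boundary.

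Printed next are the start of the boundary that lies on Hes1, and the CTCF matches near the boundaries beside Trp63, Cftr, Foxi1 and Ermn. The first is shown because it is the stretch just before the start of the protein-coding Hes1 transcript. It is chr16:30065001-30065300 of GRCm38, + strand, the first 300 bases of a 5 kb boundary, with no annotated exon or UTR in it. Capitals mark TGGGAA, the core word bound by RBPJ, the DNA-binding partner of Notch, searched on both strands.

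Hes1 boundary: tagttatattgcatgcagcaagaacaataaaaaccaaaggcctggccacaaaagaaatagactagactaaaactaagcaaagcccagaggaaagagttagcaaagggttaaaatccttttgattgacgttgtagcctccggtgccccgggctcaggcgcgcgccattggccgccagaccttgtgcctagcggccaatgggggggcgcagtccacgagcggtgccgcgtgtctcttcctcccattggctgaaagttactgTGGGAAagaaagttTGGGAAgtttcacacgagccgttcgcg

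Both matches are on the + strand, at 30065260 to 30065265 and 30065274 to 30065279, and end 75 and 61 bases before the start of the protein-coding Hes1 transcript. At least 1 match was present in the first 300 bases of 25.0% of all boundaries and at least 2 in 3.71%. Among 32851 RefSeq promoters of the same length, at least 1 was in 25.6% and at least 2 in 3.79%. A match is a word in the sequence and shows no binding.

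For CTCF, exact matches to its 12-base consensus were sought on both strands within 10 kb of the 18 boundaries that flank the 9 genes. There was a match at 5 of the 18, where 23.1% of all 7435 boundaries had one. Each is printed 5′ to 3′ along the strand of the match, with the consensus in capitals and 20 bases on either side.

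Trp63, 5′ boundary, chr16:25360536-25360587, + strand: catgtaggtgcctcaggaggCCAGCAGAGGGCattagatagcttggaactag

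Trp63, 3′ boundary, chr16:25964019-25964070, + strand: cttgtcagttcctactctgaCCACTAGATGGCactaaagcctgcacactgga

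Cftr, 3′ boundary, chr6:18373079-18373130, - strand: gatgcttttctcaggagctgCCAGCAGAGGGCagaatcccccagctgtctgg

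Foxi1, 3′ boundary, chr11:33917745-33917796, - strand: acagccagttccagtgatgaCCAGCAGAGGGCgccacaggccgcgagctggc

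Ermn, 5′ boundary, chr2:58459154-58459205, - strand: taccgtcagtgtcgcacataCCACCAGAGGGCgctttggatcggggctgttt

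All 5 lie in introns, of Tprg and P3h2 for Trp63, Cttnbp2 for Cftr, Kcnip1 for Foxi1 and Acvr1 for Ermn. Read along the consensus, 3 point into the interval of the gene (Trp63 5′, Cftr 3′ and Ermn 5′) and 2 point away from it (Trp63 3′ and Foxi1 3′). The Cftr match is inside its boundary and the others are 0.951 to 4.43 kb from theirs. The flanking boundaries of Pax6, Hes1, Ascl3, Trpm5 and Muc5ac held no exact match in this window.

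Of the 9 genes, Trp63 and Pax6, both carried by basal cells, were the farthest from any boundary. In a wider list of 8 basal genes, all the others started nearer to a boundary than these. Sox2 was at 20.4 kb, Krt5 at 42.1 kb, Itgb4 at 45.3 kb, Krt14 at 107 kb, Icam1 at 109 kb and Egfr at 158 kb. All were named after their values were seen. Trp63 encodes p63, the transcription factor that marks the horizontal basal stem cells and keeps them at rest. The gene (ENSMUSG00000022510.14, chromosome 16, 25683763 to 25892102, + strand, 208 kb long) started 281 kb from its nearest boundary, and 4.80% of all protein-coding starts were as far or farther. Its interval, 25370001 to 25965000, was 595 kb long, longer than or equal to 89.1% of all 7415 intervals, and held no other protein-coding start. The boundary on the 5′ side was Strong, with a score of 1.74 that was at or above 93.4% of the list. It lay at 25365001 to 25370000, in an intron of Tprg. The 3′ boundary, at 25965001 to 25970000 in an exon of the collagen-modifying enzyme gene P3h2, was Weak with a score of 0.409 and 72.9 kb past the end of Trp63. The next Strong boundary on that side was 1786 kb from the Trp63 start, so that the stretch between Strong boundaries was 2100 kb long and held 10 protein-coding starts.

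Trp63 has annotated transcript starts at both ends of a stretch of 118 kb. The 4 upstream transcripts start at 25683763 to 25683765. The other 4 start inside the gene at 25801916, 163 kb from the nearest boundary. Both start sites and the whole gene body lay in the same interval. Of protein-coding genes at least 100 kb long, 47.5% overlap a boundary, and Trp63 and Cftr, the 2 members of that length, do not.

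Pax6 is a transcription factor of eye and brain development that basal, sustentacular and gland cells of the epithelium carry. The gene (ENSMUSG00000027168.21, chromosome 2, 105668900 to 105697364, + strand) started 179 kb from the nearest boundary, and 10.3% of protein-coding starts were as far or farther. It was 1 of 2 members with Strong boundaries on both sides. The 5′ one, at 105485001 to 105490000 with a score of 0.853, was intergenic, and the first protein-coding start beyond it was that of Rcn1, 85.7 kb further. The 3′ one, at 106190001 to 106195000 with a score of 0.562, lay in exonic sequence of the pseudogene Dcdc5 and 493 kb past the end of Pax6. The interval of 700 kb was the longest of the 9, at or above 92.3% of all intervals.

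Besides Pax6 that interval held the starts of Elp4, a subunit of the Elongator complex, Immp1l, a mitochondrial peptidase, and Dnajc24, a diphthamide synthesis gene. All 3 lay downstream, at 236, 236 and 335 kb from the Pax6 start. Elp4 is known to hold distant enhancers of Pax6 in its introns, and the whole of Elp4 lay in the same interval as Pax6. All 26 annotated Pax6 transcripts started 179 to 202 kb from the nearest boundary.

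The sustentacular gene Hes1 lay on a Weak boundary, and Ermn lay between Strong ones. Hes1 is the repressor that Notch signalling switches on, and it keeps supporting cells from the neuronal fate. The gene (ENSMUSG00000022528.8, chromosome 16, 30064384 to 30067796, + strand) was the 1 member of 9 whose body overlapped a boundary, a share of 11.1% against 15.5% of all protein-coding genes. That boundary, at 30065001 to 30070000, was Weak with a score of 0.287, at or above 22.6% of the list. It covered Hes1 from its position 30065001 onward, including the start of its protein-coding transcript at 30065340. The gene record begins 0.956 kb earlier with a noncoding transcript, which puts the start of the record 0.617 kb outside. Of the 4 Hes1 transcripts, 3 started inside the boundary, and these were the only 3 of the 58 transcripts of the 9 genes to do so. Of the 58, 26 are of Pax6, and the share over all annotated transcripts is not given here. By gene records, 3.29% of all protein-coding starts lay inside a boundary. The RefSeq gene record starts at 30065357, also inside.

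Upstream of Hes1 the chromosome was empty of other protein-coding starts for its whole interval of 375 kb. The boundary that ended it, at 29685001 to 29690000, was Weak with a score of 0.422 and intergenic, and the first protein-coding start beyond it was that of Opa1, a mitochondrial fusion gene, 106 kb further. On the other side of the Hes1 boundary the next boundary followed after 255 kb and was Strong (30325001 to 30330000, score 0.998). The nearest protein-coding start there was that of Cpn2, 197 kb past the boundary. Hes1 thus sat on a Weak boundary in a stretch of 750 kb between Strong ones that held 5 protein-coding starts.

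Ermn encodes ermin, an actin-binding protein best known from myelinating glia and listed here as a sustentacular marker. The gene (ENSMUSG00000026830.9, chromosome 2, 58045113 to 58052864, - strand) began 57.9 kb away from a Strong boundary at 57990001 to 57995000, on its 3′ side, with a score of 1.25. On its 5′ side the boundary was also Strong (58450001 to 58455000, score 0.782), in an intron of the activin receptor gene Acvr1, and 397 kb away. The interval was 455 kb long and held 3 other protein-coding starts. They were those of Galnt5, a mucin-type glycosylation enzyme, at 55.0 kb from the Ermn start, Cytip, a cytohesin partner of leukocytes, at 143 kb, and Acvr1c, another activin receptor, at 305 kb. Galnt5 started 2.88 kb from the boundary next to Ermn. Beyond that boundary the first protein-coding start was 752 kb off, that of Gpd2.

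The genes of ionocytes, Foxi1, Ascl3 and Cftr, had a Strong boundary on 1 of their 6 sides, where 62.1% of the boundaries beside all protein-coding starts were Strong. Coch, the other ionocyte gene of a wider list and named after its value was seen, started 11.7 kb from a Strong boundary. Foxi1, the transcription factor that specifies ionocytes in many epithelia (ENSMUSG00000047861.2, chromosome 11, 34204338 to 34208089, - strand), started 31.9 kb from a Weak boundary on its 5′ side with a score of 0.463. This boundary, at 34240001 to 34245000, lay in an intron of Dock2, a leukocyte migration gene. The 3′ boundary was Strong (33910001 to 33915000, score 0.727), 293 kb from the Foxi1 start and inside an intron of Kcnip1. Foxi1 therefore started near the 5′ edge of an interval of 325 kb. With it in that interval were the starts of 4930469K13Rik at 110 kb, Lcp2, an adaptor of T cell signalling, at 161 kb, and the potassium channel partners Kcnip1 and Kcnmb1 at 215 and 245 kb. Kcnip1 crossed the Strong boundary.

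Ascl3 encodes a basic helix-loop-helix factor of ionocyte-like microvillar cells and gland progenitors. The gene (ENSMUSG00000035951.2, chromosome 7, 109727465 to 109731726, - strand) started 26.7 kb from a Weak boundary with a score of 0.468 at 109700001 to 109705000. Inside that boundary were the starts of Akip1 and St5. The 5′ boundary was Weak too, intergenic, at 109870001 to 109875000, with the lowest score of all 18, 0.232, at or above 9.40% of the list. Ascl3 shared its interval of 165 kb with BC051019, Tmem9b, Nrip3 and Scube2, a hedgehog release factor, whose starts were 7.88, 21.1, 50.3 and 134 kb from its own. All 5 genes are on the same strand. The nearest Strong boundaries were 302 and 538 kb away, and the stretch between them, 840 kb, held 16 protein-coding starts.

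Cftr, the chloride channel mutated in cystic fibrosis and abundant in ionocytes, was the farthest of the 9 from a Strong boundary. The gene (ENSMUSG00000041301.15, chromosome 6, 18170687 to 18322768, + strand, 152 kb long) began 576 kb away from such a boundary, and 6.84% of all protein-coding starts were as far from one or farther. It lay whole between Weak boundaries with scores of 0.362 and 0.417. The 5′ one, at 18055001 to 18060000, was in an exon of Asz1, a germ cell gene, 111 kb from the Cftr start. Wnt2, a signalling ligand, started 24.4 kb beyond it. The 3′ one, at 18370001 to 18375000, overlapped exon and UTR of Cttnbp2 and lay 47.2 kb past the end of Cftr. The interval of 310 kb held 1 other protein-coding start, that of Asz1, 61.6 kb upstream. Between Strong boundaries the stretch was 1280 kb with 8 protein-coding starts.

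Trpm5 is the calcium-activated cation channel of taste cells and of tuft-like microvillar cells. The gene (ENSMUSG00000009246.14, chromosome 7, 143069153 to 143094642, - strand) lay in the shortest interval of the 9, 160 kb, at or above 19.5% of all intervals. Its nearest boundary was on the 5′ side, 55.4 kb away and Strong, with a score of 0.906. It lay at 143150001 to 143155000 in an intron of the potassium channel gene Kcnq1. The 3′ boundary, Weak with a score of 0.377, was at 142985001 to 142990000 in an exon of Tspan32os, and Ascl2 started 15.7 kb beyond it. Trpm5 belongs to the imprinted Kcnq1 region. Its interval held the starts of Kcnq1 at 11.7 kb, Tssc4 at 25.4 kb and the tetraspanin genes Cd81 at 41.9 kb and Tspan32 at 89.6 kb. Kcnq1 started within the interval and crossed its Strong boundary, beyond which the first other protein-coding start was that of Cdkn1c, a growth inhibitor of the same region, at 306 kb.

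The gland gene Muc5ac shared its interval with its own gene family. Muc5ac encodes a gel-forming mucin of surface and gland secretion (ENSMUSG00000037974.16, chromosome 7, 141788972 to 141819231, + strand). The interval of 235 kb, 141630001 to 141865000, held 4 protein-coding starts and no start of any other kind. These were Muc6, Muc2, Muc5ac and Muc5b, all gel-forming mucins, with Muc6 134 kb and Muc2 98.6 kb upstream of Muc5ac and Muc5b 50.1 kb downstream. Both boundaries were Weak and scored below the lower quartile of the list. The 5′ one (141625001 to 141630000, score 0.247) was in an exon of the adaptor gene Ap2a2, 159 kb from the Muc5ac start. The 3′ one (141865001 to 141870000, score 0.296) was 76.0 kb from it and lay in an exon of Muc5b, so the last mucin gene of the row crossed it. Muc5ac and Trpm5 are 1.31 Mb apart on chromosome 7, with 5 boundaries between their starts, 3 of them Strong.

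**Figure D2:**
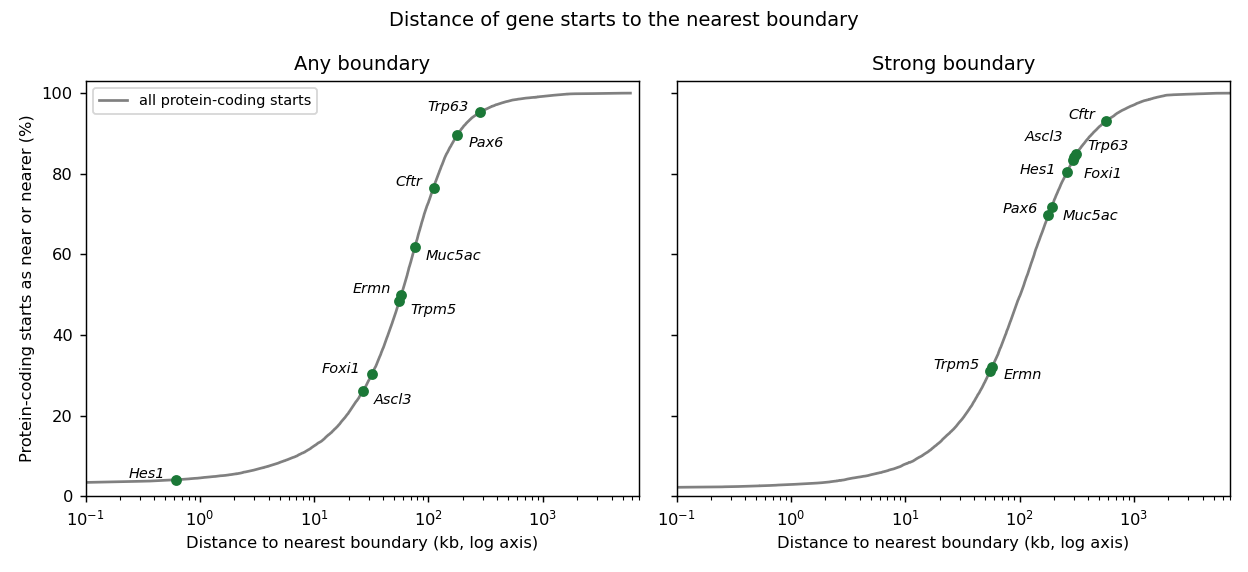
Share of protein-coding starts (%) as near to a boundary or nearer, by distance in kb on a log axis, for any boundary (left) and for Strong boundaries (right), with starts at 0 or under 0.1 kb drawn at the left edge. Green points are the 9 genes. On the left they spread over the whole curve from Hes1 to Trp63, and on the right 7 of 9 lie above the median of 102 kb.

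Set side by side, the 18 flanking boundaries were all different ones. Of these, 7 were Strong and 11 Weak, that is, 38.9% Strong (exact 95% interval 17.3 to 64.3%). The interval takes the 18 as separate, though they come in pairs from the same genes chosen by hand. Counted among them is the 3′ boundary of Hes1, which holds the protein-coding start of that gene. In the whole list 51.8% were Strong, and of the boundaries beside all protein-coding starts 62.1%. The median score was 0.443, and 0.520 in the whole list. Flanking boundaries of all protein-coding starts, counted once per start and side, had a median of 0.651. Of the 18, 4 scored below the lower quartile of the list, 0.301, and 2 above the upper quartile, 0.969. The 4 lowest were the 5′ boundary of Ascl3, the 3′ boundary of Hes1 and both of Muc5ac. The 2 highest were the 5′ boundary of Trp63 and the 3′ boundary of Ermn.

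Between 2 Weak boundaries lay 4 of the 9 genes, Hes1, Ascl3, Cftr and Muc5ac (44.4%, exact 95% interval 13.7 to 78.8%), where 13.5% of protein-coding starts that lie between 2 boundaries did. That interval covers counting error in genes chosen by hand and is no test against the 13.5%. Without Hes1, whose protein-coding start lies inside a boundary, the count was 3 of 8, for which no interval is given. Foxi1, Trp63 and Trpm5 had 1 Strong boundary, which held for 48.7% of protein-coding starts that lie between 2 boundaries. Pax6 and Ermn had 2, which held for 37.7%. Of the 11 Weak boundaries, 5 scored at 0.4 or more, under the division of classes. GC content of the 18 boundaries ran from 40.2 to 53.7% with a median of 45.1%, and the median of the list was 42.6%. The nearest boundary was on the 5′ side of the start in 4 genes and on the 3′ side in 5.

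**Figure D3:**
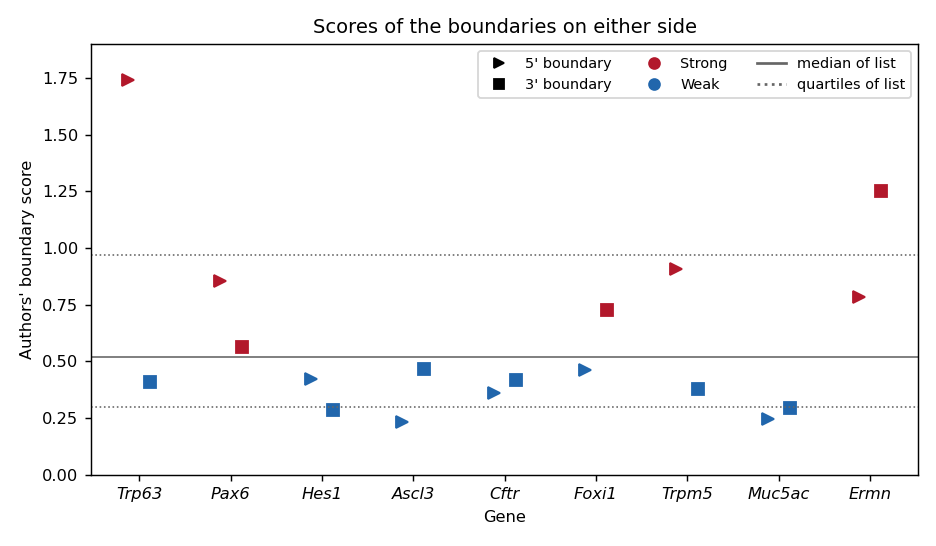
The authors' score of the boundary on the 5′ side (triangles) and 3′ side (squares) of each gene, red Strong and blue Weak, with the median (solid) and quartiles (dotted) of the list. Both points are blue for Hes1, Ascl3, Cftr and Muc5ac and both red for Pax6 and Ermn.

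The intervals of all 9 genes held fewer protein-coding starts than that of the median gene. They ran from 160 to 700 kb with a median of 325 kb, while the median was 260 kb over all 7415 intervals and 275 kb over the intervals in which protein-coding genes start. They held 1 to 5 protein-coding starts with a median of 4, and for all protein-coding genes the median was 6 (quartiles 3 and 11). Per 100 kb of interval the median was 0.879 starts for the 9 genes and 2.11 for all, with 7 of 9 below that value and Trpm5 (3.13) and Ascl3 (3.03) above it. Trp63 and Hes1 were alone in theirs, as were 8.85% of all protein-coding genes. Hes1 has an interval only by the start of its GENCODE record, since its protein-coding and RefSeq starts lie inside the boundary. Without Hes1 the other 8 had a median interval of 318 kb, a median of 4 protein-coding starts and 1.21 starts per 100 kb, and 1 of the 8, Trp63, was alone. Between Strong boundaries the medians were 8 starts for the 9 genes and 9 for all. Within the intervals, starts of other annotated genes, mostly noncoding, added between 0 for Muc5ac and 10 for Pax6.

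**Figure D4:**
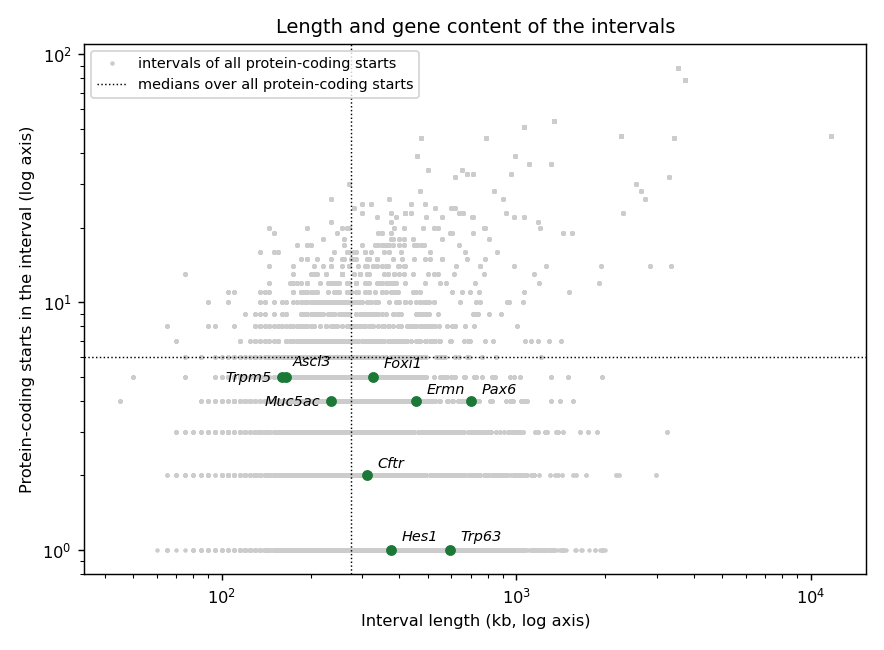
Length of the interval in kb and number of protein-coding starts in it, both on log axes, for all protein-coding genes (grey) and the 9 genes (green). Dotted lines are the medians over all protein-coding starts, 275 kb and 6 starts. All 9 green points lie below the horizontal line, and 6 lie to the right of the vertical one.

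The promoters of the 9 genes ranged widely in base composition. RefSeq promoter sequences of GRCm38.p6, 250 bases before to 50 after the start, were matched for 6 of the 9 genes and not for Trp63, Hes1 and Muc5ac. CG pairs numbered 31 in Cftr, 18 and 16 in the promoters listed for Pax6, 6 in Foxi1, 5 in Ermn, 5 in Trpm5 and 3 in Ascl3, and the median over all promoters was 7. The extremes, both of genes between Weak boundaries, are printed with CG pairs in capitals to show the contrast.

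Cftr promoter, chr6:18170437-18170736, + strand: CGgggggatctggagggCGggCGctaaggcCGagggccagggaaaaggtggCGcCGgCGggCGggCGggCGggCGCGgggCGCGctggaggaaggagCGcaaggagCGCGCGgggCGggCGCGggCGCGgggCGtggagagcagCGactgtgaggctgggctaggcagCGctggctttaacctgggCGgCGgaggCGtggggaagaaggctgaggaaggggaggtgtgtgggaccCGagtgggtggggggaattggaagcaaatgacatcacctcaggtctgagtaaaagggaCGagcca

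Ascl3 promoter, chr7:109731683-109731982, - strand: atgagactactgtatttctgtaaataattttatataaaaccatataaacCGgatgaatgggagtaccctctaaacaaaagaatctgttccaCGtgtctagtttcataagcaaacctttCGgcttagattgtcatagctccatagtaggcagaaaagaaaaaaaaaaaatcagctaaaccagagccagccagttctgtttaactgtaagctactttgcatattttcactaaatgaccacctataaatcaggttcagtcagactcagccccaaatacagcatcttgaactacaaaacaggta

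GC content was 71.3% in the Cftr promoter and 36.0% in that of Ascl3, and 52.7% was the median of all. The Cftr start was 111 kb and the Ascl3 start 26.7 kb from the nearest boundary.

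A wider list of 35 genes of the same non-neuronal cells and of the ensheathing glia below them was set beside the 9. Of these 35, 26 are not among the 9. For the 26 the median distance was 51.9 kb to any boundary and 101 kb to a Strong one. Against these 101 kb stand the 261 kb of the 9 genes and the 102 kb of all protein-coding starts. The nearest boundary was Strong for 14 of the 26, and for 62.9% of all protein-coding starts. The median interval was 272.5 kb for the 26, 325 kb for the 9 genes and 275 kb for all protein-coding starts. Only Sox10, the transcription factor of glia, started within 10 kb, at 5.24 kb from a Strong boundary with a score of 0.974. Farthest of the 26 was Egfr, a growth factor receptor, at 158 kb.

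2 lists of the neuronal lineage were set beside the 9 genes as well. For 15 genes of mature olfactory sensory neurons, such as the G protein subunit gene Gng13, whose start lay in a boundary, the median distance was 46.8 kb to any boundary and 48.1 kb to a Strong one. The nearest boundary was Strong for 10 of 15, where it was for 62.9% of all protein-coding starts. Their median interval was 215 kb long. For 10 progenitor and immature neuron genes, with Kit (275 kb) and Ezh2 (270 kb) farthest out, the medians were 67.5 kb to any boundary and 204 kb to a Strong one. Of these, 4 of 10 were nearest to a Strong one, and their median interval was 287.5 kb long. The lists were compared by these values alone, and the differences between them were not tested.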

How the data were processed

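In situ Hi-C was deposited for 2 biological replicates, and the labels say that 1% formaldehyde fixed the cells. The authors called boundaries, per the series design text, on the contact matrix of both replicates combined, on GRCm38, which the submitters' processing notes also name. The deposited list gives each 5 kb interval a class word and a strength score by the authors' caller. Not given in the sources are the caller, the score's formula, the aligner, filters and depth, and the score serves only to describe and rank within the list.

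Gene and transcript records came from GENCODE M21 and sequence from the GRCm38.p6 assembly. Each boundary lay within its chromosome. Distances run from the gene start to the nearest edge of a boundary, in 1-based coordinates. Starts outside the first to last boundary were left out, and 708 starts inside a boundary have no interval. Distances were checked on simulated boundaries. No tests were made. Exact intervals used SciPy 1.17.1, and tables pandas 2.3.3 in Python 3.11.15.

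The 9 genes and all lists were chosen with earlier results of these data known. Named are the 9 genes, every protein-coding gene starting in their intervals, genes on or just beyond flanking boundaries, and from each wider list the genes within 10 kb and the 2 farthest. Opa1, Cpn2, Rcn1, Wnt2, Ascl2, Cdkn1c and Gpd2 were named as the first protein-coding starts beyond a boundary, after their values were seen. One gene that this rule names is not reported here.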

Additional observations from a re-analysis of the deposited data

How the results depend on the processing

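No paired analysis was possible because the 2 replicates form 1 group and the list holds no value per replicate, so leaving out a replicate was not possible either. Alternatives using a score minimum of 0.3 or RefSeq starts were chosen after seeing the data. With Strong boundaries only, the median distance of the 9 genes was 261 kb (all protein-coding starts 102 kb) and their median interval 750 kb (all 500 kb). Their median number of protein-coding starts per interval was then 8 (all 9), and 0 of 9 started within 10 kb (7.94% of all). With boundaries scored at least 0.3, the median distance was 111 kb (all 71.0 kb), and 0 of 9 started within 10 kb (10.4% of all). The boundary on Hes1 then falls out and the distance of Hes1 becomes 261 kb, and that of Muc5ac 191 kb. The count of starts near a boundary was 0 for starts inside one (3.29% of all protein-coding starts) and 3 within 50 kb (44.3% of all). Counting all annotated genes gave a median of 7 starts per interval for the 9 genes. No value over all protein-coding genes is given beside it, so the 2 cannot be compared by this count. The CTCF consensus matched within 25 kb of 7 of 18 flanking boundaries (38.1% of all boundaries). The looser CTCF motif, with any base at the degenerate positions, matched within 10 kb of 12 of 18 flanking boundaries (75.4% of all boundaries). RefSeq starts put Hes1 inside a boundary and so without an interval, and the median interval of the other 8 was 318 kb with a median of 4 protein-coding starts. Midpoint distances, the nearest transcript start and RefSeq starts left the median distance of the 9 genes within 5 kb. By midpoints it was 60.4 kb, and 60.3 kb for all protein-coding starts. By the nearest transcript start it was 57.9 kb for the 9 genes, while that of all fell to 49.0 kb. The nearest transcript start, RefSeq starts, a distance of 25 kb and gene bodies left the count near a boundary at 1. Over all protein-coding genes the share within 10 kb was 16.7% by the nearest transcript start and 25.3% by gene bodies. Within 25 kb it was 24.8% of all starts. Percentiles within chromosomes moved the median score percentile by under 5 points. For single genes, the nearest transcript start moved the distance of Trp63 alone, to 163 kb.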
